A study of Mus musculus with 9 samples.

Results

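Epithelial and mesenchymal identity was followed in LLC1, a mouse cell line from the Lewis lung carcinoma, through 10 genes taken by symbol from the deposited tables. They are the mesenchymal markers Vim, Cdh2, Fn1, Ncam1 and Axl and the epithelial markers Krt8, Krt18, Tjp1, Ocln and Pkp3. All 10 were listed in both tables, among 19305 genes listed in either. LLC1 cells had been kept for 24 h in direct contact with T cells labelled Th9, Th17 or Th0, with 1 T cell per LLC1 cell, in 3 groups of 3 libraries. After removal of the CD4+ cells by sorting, the total RNA of the remaining cells was sequenced. All groups thus had T cell contact, LLC1 cells without T cells were not analysed here, and the labels say of the T cells only that the subsets were generated artificially. The series' title names an epithelial-mesenchymal transition (EMT) of lung cancer cells in contact with Th9 and Th17 cells as its question. Separate cultures within a group are not stated in the labels, so a p-value here sets a difference against the spread of these libraries only, which may be technical.

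As background, epithelial cells are held in sheets by E-cadherin (Cdh1), tight junctions and desmosomes, and their cytoplasm is braced by keratin filaments, of which keratin 8 and keratin 18 form the obligate partners of simple epithelia. In EMT these are replaced by vimentin filaments, N-cadherin (Cdh2) and a fibronectin matrix, and transcription factors of the Snail, Zeb and Twist families repress epithelial genes, Cdh1 foremost, through E-box sequences. Carcinoma cells often hold traits of both states.

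Values are normalized counts, rounded to whole numbers by the authors, in 2 tables that were normalized separately and share the Th0 libraries. Approximate depth was 13536587 to 14622494 reads in Th9 libraries, 13779360 to 17504852 in Th17 libraries and 12719489 to 15337542 in Th0 libraries. Th0 replicate 1 stood apart: Gm26917, mt-Rnr1 and mt-Rnr2, which encode non-coding RNAs, held 31.1% of its counts, where they held 16.1% to 21.8% in Th9 and Th17 libraries and 14.9% and 16.6% in the other Th0 libraries. In the table with Th9 its values were 0.699 times the mean of the other Th0 libraries for Vim, 0.686 for Cdh2, 0.711 for Krt8, 0.704 for Krt18, 0.774 for Tjp1 and 0.676 for Ocln, 0.915 to 0.937 for Fn1, Ncam1 and Axl, and 1.47 for Pkp3, where the median of all genes was 0.973. It thus read low for both filament systems at once, and what leaving it out changes is given beside the results below. T cell markers moved with the Th9 group. Their summed level, over 24 genes listed, was 1468 to 2077 in Th9 libraries and 115 to 255 in Th0 libraries, 16 of 19 tested were called higher and none lower, and Cd6, Ubash3a and Trbc1 were at 0 in every Th0 library. Of those 16 genes, 13 had a Th0 mean under 10 and so were tested only through their level in Th9 libraries. Over the 15 T cell markers listed in the table with Th17 the sum was 93 to 112 in Th17 libraries and 114 to 245 in Th0 libraries, and 0 of 6 tested passed by limma-trend (2 at an unadjusted p under 0.05). Markers of B cells, myeloid cells and NK cells summed to 304 to 362 in Th9 libraries, against 272 to 461 in Th0 libraries, with 1 of 6 tested higher (Cd14) and 1 lower (Lyz2, tested only through its level in Th0 libraries); in the table with Th17 they summed to 237 to 262 in Th17 libraries and 276 to 476 in Th0 libraries, with 0 of 6 called by limma-trend (2 at an unadjusted p under 0.05). The 4 endothelial markers listed summed to 40 to 58 in Th9 libraries and 9 to 25 in Th0 libraries, where Pecam1, the only one tested, was tested only through its level in Th9 libraries (42, 28 and 33, against 13, 5 and 11 in Th0 libraries), and 3 summed to 11 to 14 in Th17 libraries and 10 to 25 in Th0 libraries. Among the Th0 libraries, Th0 replicate 1 had the highest sum for each of these sets in the table with Th9. Its sum was 255 for T cell markers (144 and 115 in Th0 replicates 2 and 3) and 461 for B cell, myeloid and NK markers (272 and 273). For endothelial markers it was 25 (9 and 15). The part of T cell RNA, or of RNA of these other cells, in the marker results below was not tested.

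In Th0 co-culture LLC1 cells carried both filament systems at high level. Levels were compared between genes as normalized counts per kilobase of exon, with the Th0 values of the table with Th17 and exon lengths of GENCODE M21. They were placed among the 13397 protein-coding genes listed there, ranked in the same way. Genes not listed are outside this ranking, so percentiles are among listed genes only. Vim, which encodes the main intermediate filament of mesenchymal cells, stood first at 15586 ± 2986 per kb (SD, n = 3), the 99.9th percentile, with 12148, 17537 and 17074 in the 3 libraries. Krt18 followed at 2937 ± 553 per kb (99.4th percentile), and its filament partner Krt8 stood at 1123.9 ± 211 (98.0th percentile). Vimentin transcript thus exceeded both keratin transcripts per length in every Th0 library, with the keratins still within the upper 2.02% of ranked genes.

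Between the filament genes lay Fn1, encoding fibronectin of the extracellular matrix, at 1918 ± 125 per kb (98.9th percentile), and Tjp1, encoding the tight junction scaffold ZO-1, at 1124.4 ± 159 (98.0th percentile). Axl, a receptor tyrosine kinase of the TAM family that binds Gas6 and is used as a mesenchymal marker in carcinoma, was at 904 ± 34.9 per kb (97.3rd percentile). The ranges of Tjp1 and Krt8 overlapped, and their order changed from library to library. The ranges of Krt8 and Axl overlapped too, yet Krt8 was above Axl within each Th0 library (887, 1289 and 1196 against 868, 906 and 937 per kb). A gap of more than an order of magnitude separated Axl and the genes above it from the other 4 markers. Cdh2, the N-cadherin gene, was at 58.3 ± 12.5 per kb (50.8th percentile) and Ocln, encoding the tight junction membrane protein occludin, at 54.9 ± 12.3 (49.4th percentile), with overlapping ranges. Their nearness depends on the length used, which was 8066 bases for Cdh2 and 4222 for Ocln. With the longest transcripts (4843 and 4052 bases) Cdh2 would stand further above Ocln. Pkp3, encoding the desmosomal plaque protein plakophilin 3, was at 25 ± 6.07 per kb (34.1st percentile) and Ncam1, encoding the neural cell adhesion molecule, at 20.9 ± 1.24 (31.3rd percentile), again with overlapping ranges. High and middling levels therefore occurred in both classes. The summed per-kb level of the 5 mesenchymal markers was 3.54, 3.54 and 3.46 times that of the 5 epithelial ones in the 3 Th0 libraries (3.51 ± 0.0453), and 5.40 times on average when the longest transcript stood for gene length. Vim made up 81.6%, 85.2% and 85.5% of the mesenchymal sum in these libraries. Without Vim the direction turned: the other 4 mesenchymal markers summed to 0.653, 0.525 and 0.503 times the level of the 5 epithelial ones (0.56 ± 0.0808).

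Cdh1 and Epcam, the genes for E-cadherin and for the epithelial cell adhesion molecule, which are used to define epithelial cells, were not listed in either table used here. Genes with almost no reads are not listed: the lowest sum of a listed gene over the 6 libraries of a table was 5. Of 75 keratin, tight junction, desmosome and epithelial surface or regulator genes, 40 (53.3%) were listed in at least 1 table, against 62.7% of 21951 protein-coding genes in GENCODE M21, and 29 had a Th0 mean of at least 10. Of 20 genes for mesenchymal filaments and membrane proteins, 19 (95%) were listed and 17 had a Th0 mean of at least 10. Those not listed included the basal keratins Krt5 and Krt14, the claudins Cldn1, Cldn3, Cldn6, Cldn8 and Cldn23, the desmosomal cadherins Dsg2, Dsg3, Dsc2 and Dsc3 with their linker Dsp, the epithelial splicing factor Esrp1, and the epithelial transcription factors Ovol1, Ovol2, Grhl1 and Grhl3. Among the epithelial genes listed, Krt18, Krt8 and Tjp1 thus stood high and other keratins low: Krt19 stood at 6.47 ± 2.85 and Krt7 at 2.27 ± 0.426 per kb. Mesenchymal genes that were listed ranged from high to low too. Besides Vim, Nes stood at 1257.8 ± 118 and Ddr2 at 669 ± 40.0 per kb. Tagln stood at 6.87 ± 5.04, Pdgfrb at 4.02 ± 1.32, Des at 2.84 ± 1.34 and Thy1 at 0.89 ± 1.02 per kb. Of 14 lung epithelial markers, 7 were listed in at least 1 table, with Ager at 48.0 ± 12.6 per kb (46.4th percentile), Abca3 at 40.9 ± 4.31 (42.9th percentile) and the surfactant gene Sftpb at 4.74 ± 1.47 (15.2nd percentile). Nkx2-1, the lung lineage transcription factor, and the surfactant genes Sftpa1 and Sftpd were among the 7 not listed. The lists were drawn up with earlier results of these data known, and these shares are descriptions.

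**Figure D1:**
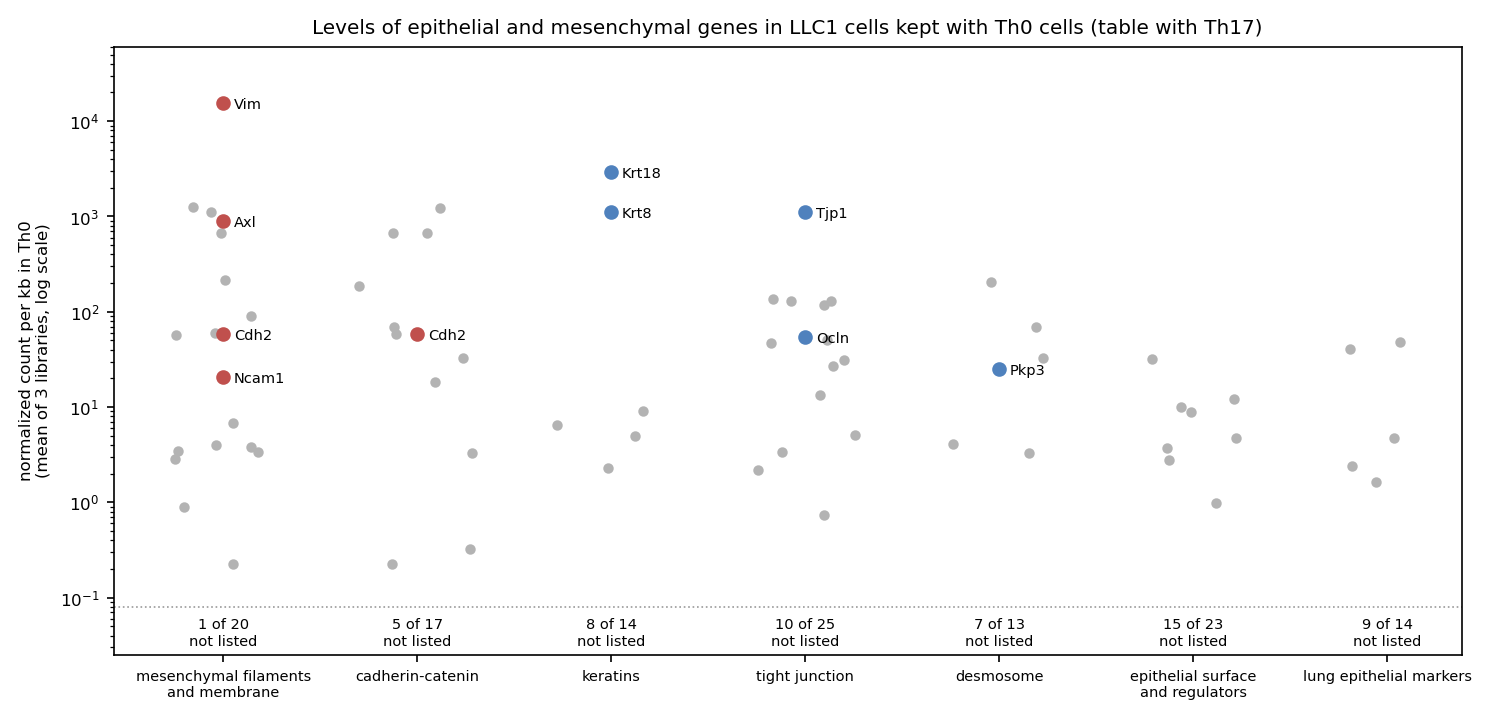
Normalized counts per kb (log scale) in LLC1 cells kept with Th0 cells, each point the mean of 3 libraries for 1 listed gene, by gene list. Markers on these lists are named (mesenchymal red, epithelial blue), and the number of genes not listed in the table with Th17 is under each column. Fn1 is on none of these lists and is not shown, and Cdh2 is shown in both the mesenchymal and the cadherin column. Vim stands highest, Krt18, Krt8, Tjp1 and Axl lie near or above 900 per kb, and most other keratin, desmosome and epithelial regulator genes are below 100 per kb or not listed. Several mesenchymal filament and membrane genes are below 100 per kb too.

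Krt8 (chr15:101996711-102004342, minus strand of GRCm38) and Krt18 (chr15:102028216-102032026, plus strand) are neighbours on chromosome 15. The 250 bases before the start of each gene, and before Epcam as an epithelial gene that is not listed, are shown because Snail and Zeb factors bind the E-box CAGGTG. The motif was searched on both strands as CAGGTG and CACCTG, which do not overlap each other, and matches are in capitals. The sequences are RefSeq's (GRCm38.p6), 5' to 3' on the strand of the gene, and cover chr15:102004343-102004592 (minus strand) for Krt8, chr15:102027966-102028215 (plus strand) for Krt18 and chr17:87635729-87635978 (plus strand) for Epcam.
Krt8: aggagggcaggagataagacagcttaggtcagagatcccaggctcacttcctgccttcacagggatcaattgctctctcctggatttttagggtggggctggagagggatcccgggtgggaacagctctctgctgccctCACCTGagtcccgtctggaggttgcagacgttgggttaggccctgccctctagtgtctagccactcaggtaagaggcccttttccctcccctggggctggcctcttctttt
Krt18: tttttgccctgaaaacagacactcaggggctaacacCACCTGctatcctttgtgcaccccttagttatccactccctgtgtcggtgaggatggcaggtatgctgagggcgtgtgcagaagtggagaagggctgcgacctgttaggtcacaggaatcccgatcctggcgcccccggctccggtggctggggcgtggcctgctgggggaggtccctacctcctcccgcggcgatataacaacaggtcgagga
Epcam: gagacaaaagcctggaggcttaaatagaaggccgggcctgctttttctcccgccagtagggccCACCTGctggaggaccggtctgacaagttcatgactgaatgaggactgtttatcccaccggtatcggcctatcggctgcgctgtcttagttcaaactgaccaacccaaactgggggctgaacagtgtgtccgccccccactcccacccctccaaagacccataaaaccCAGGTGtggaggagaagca
The motif was found once before Krt8, with its first base at -111, once before Krt18, at -214, and at -187 and -19 before Epcam. Of 32851 windows of this length, 17.2% hold it. Windows were at hand for 7 of the 12 symbols asked for (the markers, Cdh1 and Epcam). There was no match before Vim, Axl or Tjp1, and Ocln had 2 matches in one of its windows and none in another. The factors that use such sites were expressed in Th0 co-culture: in the table with Th9, Zeb1 had 2207 to 2450, Zeb2 2247 to 2618, Snai2 379 to 546 and Snai1 42 to 61 normalized counts.

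Th9 against Th0 asks whether contact with Th9 cells moved LLC1 cells between these states. The answer by marker was mixed: of the 5 mesenchymal markers Axl rose and Ncam1 fell, and of the 5 epithelial markers Pkp3 rose while Krt8 and Tjp1 fell. The largest change was in Krt8, at 0.51 times its Th0 level. That is 5 of 10 markers called by limma-trend at an adjusted p under 0.05, where 25.2% of the 14475 genes tested were called (13.4% higher and 11.9% lower). The median log2 fold change was -0.13 over the mesenchymal and -0.32 over the epithelial markers, against -0.01 over all genes tested. Values of Th9 and Th0 did not overlap for 6 of the 10 markers, where 40.6% of all genes did not overlap. In bulk RNA, fewer cells that express a gene and less RNA of it per cell cannot be told apart.

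The keratin partners were not lower to the same extent. Krt8 had 956, 1050 and 1255 normalized counts in Th9 libraries, against 1688, 2470 and 2282 in Th0 libraries. Every Th9 library was below every Th0 library, with a log2 fold change of -0.97 (SE 0.14, 95% interval -1.27 to -0.67, limma-trend adjusted p = 3.2e-04) and -1.14 without Th0 replicate 1 (adjusted p = 2.8e-08). Krt18 had 3031, 3315 and 3452 in Th9 libraries, against 3215, 4500 and 4636 in Th0 libraries. Its groups overlapped through Th0 replicate 1, and its log2 fold change of -0.32 (interval -0.6 to -0.04) had an adjusted p of 0.0899 by limma-trend, while without that library it was called lower (-0.49, adjusted p = 1.2e-05). The ratio of Krt18 to Krt8, which no scaling of a library can change, was 3.17, 3.16 and 2.75 in Th9 libraries, against 1.90, 1.82 and 2.03 in Th0 libraries. Relative to its partner, Krt8 was thus lower in each Th9 library than in any Th0 library, Th0 replicate 1 included. The ratio to Krt8 was higher without overlap for 76.2% of all genes, so this is not particular to the keratin pair. Of the other keratins tested, Krt10 (15, 13 and 15 in Th9 libraries, against 22, 15 and 20 in Th0 libraries) and Krt80 (18, 18 and 24, against 30, 30 and 32) did not pass (limma-trend adjusted p = 0.411 and 0.102), and Krt7, under the filter on low values, had 2, 5 and 3 in Th9 libraries and 13, 16 and 18 in Th0 libraries.

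Vim had 67746, 65637 and 68614 in Th9 libraries, against 56024, 81414 and 78914 in Th0 libraries. The Th9 values lie between Th0 replicate 1 and the other Th0 libraries, and the log2 fold change was -0.08 (interval -0.53 to 0.37, limma-trend adjusted p = 0.812). Without Th0 replicate 1 Vim was called lower as well (-0.25, adjusted p = 0.00886), and in no fit was it called higher. Measured against Krt8 within each library, Vim stood at 70.9, 62.5 and 54.7 times Krt8 in Th9 libraries, against 33.2, 33.0 and 34.6 times in Th0 libraries, so the balance of the filament transcripts lay further on the vimentin side with Th9 cells. Against Krt18 it moved less, with Vim at 22.4, 19.8 and 19.9 times in Th9 libraries and 17.4, 18.1 and 17.0 times in Th0 libraries. A ratio to Krt8 that is higher without overlap was found for 76.2% of all genes, and a ratio of a gene to Vim that is lower without overlap for 11.3%.

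Of the membrane and matrix markers of the mesenchymal class, Ncam1, a homophilic cell adhesion molecule of the immunoglobulin family, had 101, 89 and 106 in Th9 libraries, against 168, 188 and 171 in Th0 libraries. The groups were well apart and all Th9 libraries were lower, with a log2 fold change of -0.83 (SE 0.13, interval -1.12 to -0.54, limma-trend adjusted p = 7.4e-04) and -0.86 without Th0 replicate 1 (adjusted p = 1.1e-04). Axl went the other way, with 5964, 5893 and 6143 in Th9 libraries, against 4247, 4463 and 4598 in Th0 libraries. All Th9 libraries were higher, by a log2 fold change of 0.44 (SE 0.08, interval 0.25 to 0.62, limma-trend adjusted p = 0.00277), or 0.41 without Th0 replicate 1 (adjusted p = 2.3e-05). Krt8, Ncam1 and Axl kept their direction and passed the test in all 14 alternative fits of this comparison.

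Fn1 had 18189, 17728 and 19369 in Th9 libraries, against 20591, 23509 and 21478 in Th0 libraries. All Th9 libraries were lower, yet the log2 fold change of -0.25 (interval -0.51 to 0.02) did not pass (limma-trend adjusted p = 0.16), and it did without Th0 replicate 1 (-0.29, adjusted p = 0.00209). Cdh2 had 412, 411 and 416 in Th9 libraries, against 351, 547 and 477 in Th0 libraries. Those of Th9 fell inside the Th0 range, with a log2 fold change of -0.13 (interval -0.42 to 0.17, limma-trend adjusted p = 0.542), and -0.31 without Th0 replicate 1 (adjusted p = 0.0108). Neither N-cadherin nor fibronectin transcript was called higher with Th9 cells in any fit.

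Of the junction markers, Tjp1 had 5818, 6727 and 6596 in Th9 libraries, against 7169, 9514 and 9018 in Th0 libraries. All Th9 libraries were lower, with a log2 fold change of -0.42 (SE 0.12, interval -0.68 to -0.16, limma-trend adjusted p = 0.023), and -0.54 without Th0 replicate 1 (adjusted p = 5.6e-06). The call was lost when any one of the other 5 libraries was left out, or when all libraries were scaled to 1 total (adjusted p up to 0.214). Ocln had 215, 225 and 251 in Th9 libraries, against 171, 273 and 234 in Th0 libraries, and its groups overlapped (log2 fold change 0.05, interval -0.29 to 0.39, limma-trend adjusted p = 0.843; -0.14 without Th0 replicate 1). Pkp3 had 129, 126 and 132 in Th9 libraries, against 112, 71 and 81 in Th0 libraries. All Th9 libraries were higher, by a log2 fold change of 0.57 (SE 0.17, interval 0.2 to 0.95, limma-trend adjusted p = 0.0296), or 0.76 without Th0 replicate 1 (adjusted p = 5.4e-04), and leaving out any of the other 5 libraries lost the call (up to 0.099). Scaffold, occludin and plaque transcripts thus did not move together.

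**Figure D2:**
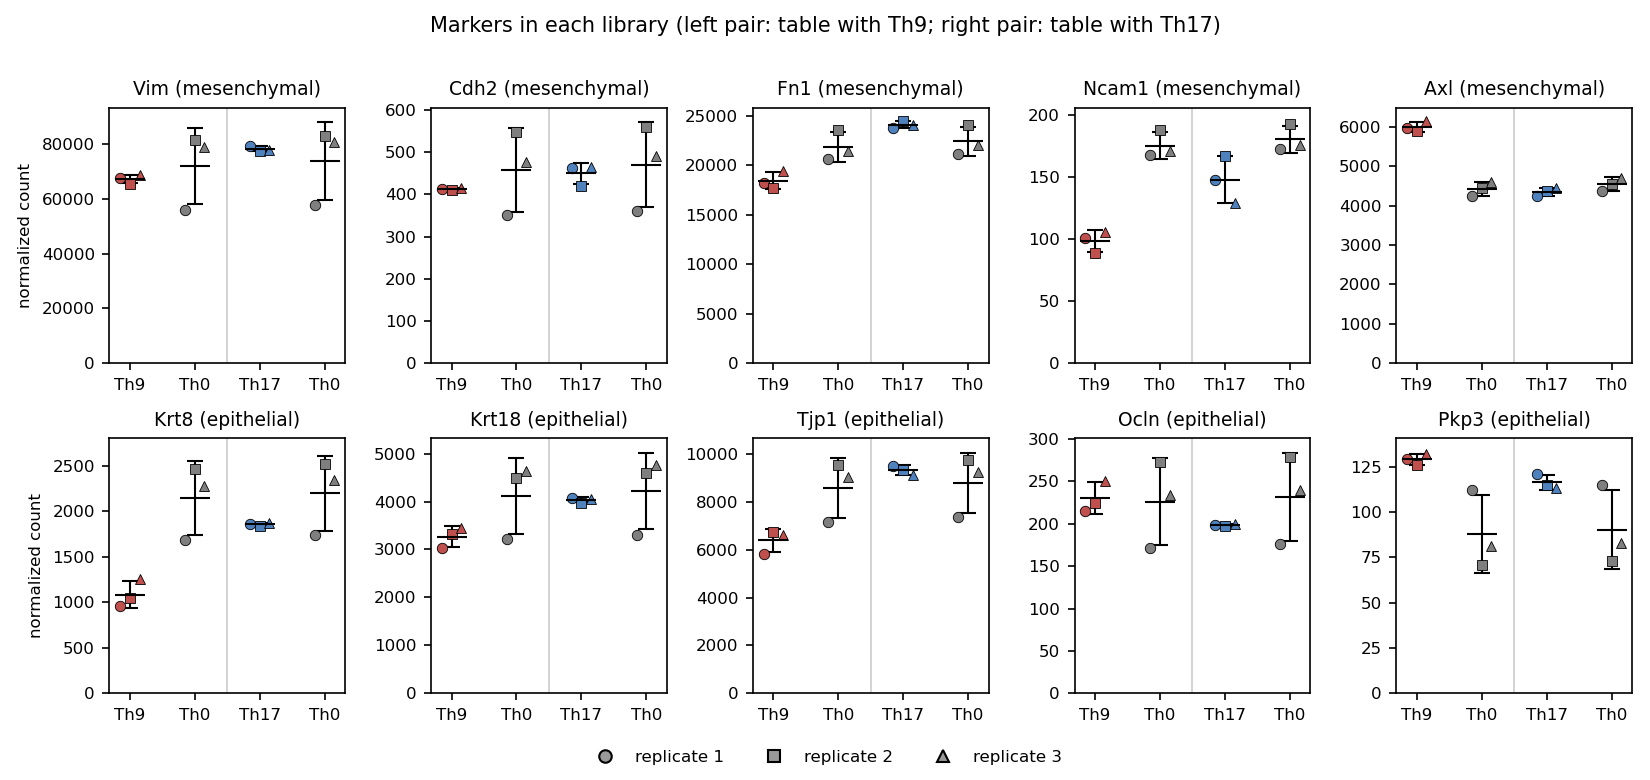
Normalized counts (linear axes from 0) of the 10 markers in each library, in each panel Th9 and Th0 of the table with Th9 at the left and Th17 and Th0 of the table with Th17 at the right; points are libraries with a shape for each replicate number, bars are mean ± SD (n = 3). Krt8, Ncam1 and Tjp1 lie lower and Axl and Pkp3 higher in all Th9 libraries, and Th0 replicate 1 lies low for Vim, Cdh2, Krt8, Krt18, Tjp1 and Ocln.

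Without Th0 replicate 1, 9 of the 10 markers were called in Th9, 2 higher (Axl and Pkp3) and 7 lower, where 37.1% of 14366 genes were called (18.1% higher and 19.1% lower). Those 7 were Vim, Cdh2, Fn1, Ncam1, Krt8, Krt18 and Tjp1, so without that library most markers of both classes were lower with Th9 cells. Across all genes the split of calls depended on scaling: 1937 rose and 1716 fell (53.0% higher), against 2251 and 794 (73.9% higher) with the same total per library, a scaling that moved the median of all genes by 0.108 on the log2 scale.

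The wider gene lists around these markers were mixed as well. Over all genes tested in this comparison 13.4% were called higher and 11.9% lower, and the list counts are descriptions to be set beside these shares. In the tight junction list 3 of 14 tested genes were called higher and 3 fell: Cldn12, a claudin, had 413, 400 and 307 in Th9 libraries, against 207, 195 and 180 in Th0 libraries (0.93, limma-trend adjusted p = 2.5e-04). The polarity adaptor gene Mpp5 rose too (0.42, 0.0102), while Cgnl1, encoding paracingulin (-0.62, 6.9e-04), Mpdz (-0.30, 0.0302) and Tjp1 fell. The third gene called higher, the polarity adaptor Inadl, had 24, 17 and 15 in Th9 libraries, against 1, 2 and 1 in Th0 libraries, and passed the filter on low values only through Th9, so its call says nothing beyond these values. In the desmosome list 3 of 6 rose and 1 fell: the plakophilins Pkp2 (0.39, 0.0115), Pkp3 and Pkp4 (0.26, 0.0437) rose, and Ppl, encoding the linker periplakin, fell to 133, 108 and 103 in Th9 libraries, against 199, 230 and 233 in Th0 libraries (-0.94, 3.9e-04). Of 10 cadherin, nectin and catenin genes tested 2 fell and none rose, Ctnnd1 (p120-catenin, -0.60, 0.00247) and Ctnna1 (alpha-catenin, -0.37, 0.0307), which tie cadherins to the cell.

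Of the epithelial surface and regulator genes 2 of 5 tested rose and none fell. Klf5, a transcription factor of proliferating epithelia, had 422, 360 and 327 in Th9 libraries, against 161, 182 and 142 in Th0 libraries (log2 fold change 1.19, limma-trend adjusted p = 5.1e-05). Elf3, an ETS factor of epithelia, had 40, 44 and 34 in Th9 libraries, against 13, 17 and 28 in Th0 libraries (1.05, 0.023). Of the EMT transcription factors 2 of 6 rose, Snai2 (0.73, 0.00119) and Zeb2 (0.40, 0.00522), and none fell. Regulators of both states were therefore among the genes that rose, as were 13.4% of all genes tested. Of the lung epithelial markers 2 were tested: Abca3, a lipid transporter of type II cells, rose (0.34, 0.0246) and Ager, of type I cells, fell (-0.68, 0.0278).

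Of the mesenchymal filament and membrane genes 3 of 16 tested were called higher and 5 fell (13.4% and 11.9% over all genes tested). Besides Ncam1, those that fell were Acta2, smooth muscle actin (45, 59 and 56 in Th9 libraries, against 146, 125 and 112 in Th0 libraries; -1.24, limma-trend adjusted p = 2.8e-04), S100a4, also called fibroblast-specific protein (-0.95, 7.6e-04), Nes, the filament gene nestin (-0.53, 0.00229), and the receptor gene Pdgfra (-0.42, 0.00615). Besides Axl, the collagen receptor Ddr2 rose (0.27, 0.0493). Thy1, which is also a T cell gene, had 151, 110 and 86 in Th9 libraries, against 6, 0 and 2 in Th0 libraries, and passed the filter only through Th9. Of the 4 TAM receptor and ligand genes tested Axl rose and the related receptor Mertk fell, to 213, 230 and 226 in Th9 libraries, against 420, 392 and 360 in Th0 libraries (-0.80, 1.5e-04).

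Of the fibronectin receptors and partners 3 of 11 rose and 2 fell (13.4% and 11.9% over all genes tested). Itgb3 rose (118, 90 and 80 in Th9 libraries, against 39, 32 and 43 in Th0 libraries; log2 fold change 1.31, limma-trend adjusted p = 6.2e-04) with its partner chain Itgav (0.27, 0.048), and the matrix-adhesion genes Tns1 (-1.31, 0.00395) and Sdc4 (-0.51, 0.0445) fell. Itga4, the integrin chain by which lymphocytes bind fibronectin, had 119, 96 and 62 in Th9 libraries, against 21, 8 and 3 in Th0 libraries, beside the T cell markers given above. Among NCAM partners 1 of 6 tested was called higher and 2 fell: Fgfr1, a receptor that NCAM binds, fell with Ncam1 (-0.65, 1.3e-04), and St8sia4, a polysialyltransferase that modifies NCAM, had 60, 45 and 63 in Th9 libraries, against 7, 5 and 1 in Th0 libraries. St8sia4, the one called higher, passed the filter only through Th9. Without Th0 replicate 1 the counts of genes higher and lower were 0 and 2 of 5 for keratins, 3 and 3 of 14 for tight junctions, 3 and 1 of 6 for desmosomes, 1 and 4 of 10 for cadherins and catenins, 3 and 0 of 5 for epithelial surface and regulator genes and 3 and 1 of 6 for EMT transcription factors. They were 4 and 7 of 17 for mesenchymal filament and membrane genes, 5 and 3 of 11 for fibronectin receptors, 1 and 2 of 6 for NCAM partners and 1 and 1 of 4 for TAM receptors. In that fit 18.1% of all genes were called higher and 19.1% lower. The calls of Abca3, Ager, Mpdz, Pkp2, Pkp4, Ctnna1, Elf3, Ddr2, Itgav and Sdc4 were lost when any of several single libraries was left out, and that of Mpp5 without Th9 replicate 1. With the same total per library, those of Nes, Pdgfra, Mpdz, Pkp4, Ctnna1, Ddr2, Itgav and Sdc4 were lost. No filter on low values lost those of Pkp4, Ddr2 and Itgav, and a replicate block that of Ddr2. The Ager call was lost with the same total without Gm26917, mt-Rnr1 and mt-Rnr2.

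Th17 against Th0 asks the same of Th17 cells, with the same Th0 libraries. None of the 10 markers passed the test: 0 were called by limma-trend and 2 had an unadjusted p under 0.05 (Ncam1 and Pkp3), where 1.58% of 14342 genes tested were called. Without Th0 replicate 1, 4 were called, 1 higher and 3 lower, where 16.6% of 14209 genes were called (6.85% higher and 9.7% lower). The median log2 fold change was -0.04 over the mesenchymal and -0.04 over the epithelial markers, against 0 over all genes to 2 decimals. Values of Th17 and Th0 did not overlap for Ncam1 alone, where 23.4% of all genes did not overlap.

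Of the filament genes, Krt8 had 1859, 1842 and 1873 in Th17 libraries, against 1736, 2524 and 2342 in Th0 libraries. The Th17 values lie above Th0 replicate 1 and below the other Th0 libraries (log2 fold change -0.23, interval -0.49 to 0.04, limma-trend adjusted p = 0.361), and without that library Krt8 was called lower (-0.39, adjusted p = 2.9e-04). Krt18 had 4083, 3976 and 4058 in Th17 libraries, against 3307, 4597 and 4758 in Th0 libraries (-0.04, limma-trend adjusted p = 0.887; -0.21 and 0.00873 without that library). Vim had 79383, 77698 and 78041 in Th17 libraries, against 57619, 83176 and 80982 in Th0 libraries (0.10, interval -0.34 to 0.55, limma-trend adjusted p = 0.838; -0.07 and 0.519 without that library). For all these filament genes the Th17 libraries fell inside the Th0 range. Within libraries, Vim stood at 42.7, 42.2 and 41.7 times Krt8 in Th17 libraries, against 33.2, 33.0 and 34.6 in Th0 libraries, and Krt18 at 2.20, 2.16 and 2.17 times Krt8, against 1.90, 1.82 and 2.03. Both ratios were higher in every Th17 library, Th0 replicate 1 included; a ratio to Krt8 that is higher without overlap was found for 26.7% of all genes, and a ratio to Vim that is lower without overlap for 16.1%.

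Ncam1 had 148, 167 and 129 in Th17 libraries, against 173, 193 and 176 in Th0 libraries, and its log2 fold change of -0.29 (interval -0.57 to -0.02) did not pass (limma-trend adjusted p = 0.252, and 0.101 without Th0 replicate 1). Axl had 4245, 4378 and 4452 in Th17 libraries, against 4367, 4559 and 4718 in Th0 libraries (-0.06, interval -0.23 to 0.11, limma-trend adjusted p = 0.724). Fn1 had 23716, 24449 and 24060 in Th17 libraries, against 21177, 24017 and 22041 in Th0 libraries (0.11, interval -0.15 to 0.36, limma-trend adjusted p = 0.684). Cdh2 was within its Th0 range, with 463, 420 and 465 in Th17 libraries, against 361, 559 and 490 in Th0 libraries (-0.04, limma-trend adjusted p = 0.906). No mesenchymal marker was called in either direction, with or without Th0 replicate 1.

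Among the junction markers, Tjp1 had 9491, 9337 and 9091 in Th17 libraries, against 7373, 9720 and 9254 in Th0 libraries (log2 fold change 0.09, limma-trend adjusted p = 0.715; -0.03 and 0.757 without Th0 replicate 1). Ocln had 199, 197 and 200 in Th17 libraries, against 176, 279 and 240 in Th0 libraries (-0.20, limma-trend adjusted p = 0.544; -0.38 and 0.0201 without Th0 replicate 1). Pkp3 had 121, 115 and 113 in Th17 libraries, against 115, 73 and 83 in Th0 libraries (0.39, interval 0.01 to 0.77, limma-trend adjusted p = 0.265; 0.57 and 0.0118 without that library). Whether Krt8, Krt18 and Ocln are lower and Pkp3 higher with Th17 cells therefore rests on whether Th0 replicate 1 is kept at full weight. Of the wider lists 1 gene was called, the claudin gene Cldn12, with 321, 301 and 286 in Th17 libraries, against 213, 199 and 185 in Th0 libraries (0.60, limma-trend adjusted p = 0.0159), and it rose with Th9 cells too, in a comparison that shares these Th0 libraries. That call was lost without Th0 replicate 3 or any Th17 replicate. Without Th0 replicate 1 the lists had up to 2 genes higher and up to 2 lower each, where 6.85% of all genes were higher and 9.7% lower. Over all genes tested 170 rose and 56 fell (75.2% higher), against 119 and 20 (85.6% higher) with the same total per library.

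**Figure D3:**
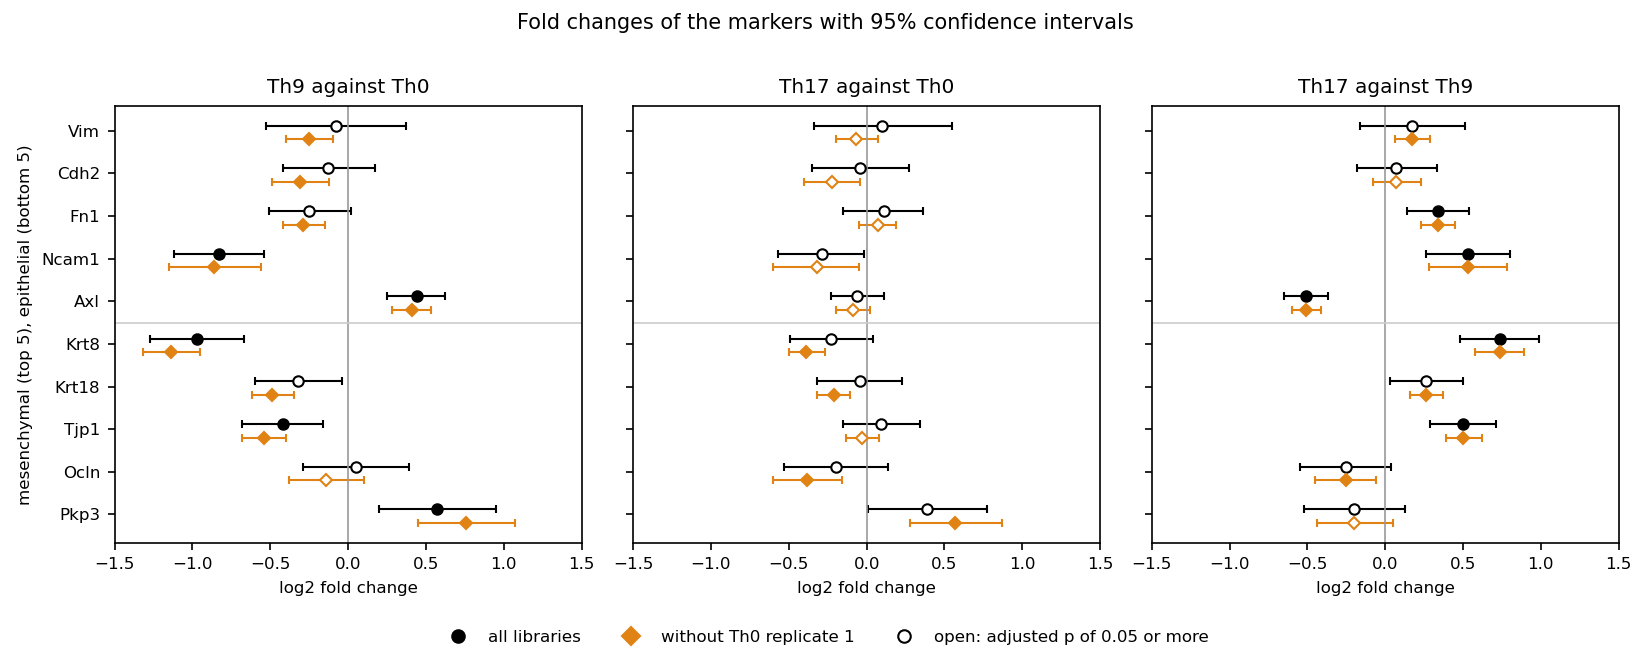
Log2 fold changes of the 10 markers with 95% confidence intervals in Th9 against Th0, Th17 against Th0 and Th17 against Th9; black circles use all libraries, orange diamonds leave out Th0 replicate 1, and open symbols have an adjusted p of 0.05 or more. In Th9 Krt8 (-0.97) and Ncam1 (-0.83) lie furthest below 0 and Pkp3 (0.57) and Axl (0.44) above it, and in Th17 no circle is filled.

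Th17 was set against Th9 directly on approximate reads of all 9 libraries brought to 1 scale, and values below are on that scale. Krt8, Ncam1, Tjp1 and Fn1 were higher and Axl was lower with Th17 cells than with Th9 cells. That is 5 of 10 markers, where 20.9% of 14443 genes tested were called (9.67% higher and 11.2% lower). With Th0 replicate 1 out of the fit, 8 markers were called, where 31.6% of genes were. Values of Th17 and Th9 did not overlap for 9 of the 10 markers, where 44.9% of all genes did not overlap. The median log2 fold change was 0.17 over the mesenchymal and 0.26 over the epithelial markers, against 0.01 over all genes.

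Krt8 had 1869, 1864 and 1891 in Th17 libraries, against 992, 1094 and 1309 in Th9 libraries (log2 fold change 0.74, interval 0.48 to 0.99, limma-trend adjusted p = 4.0e-04). Ncam1 had 149, 169 and 130 in Th17 libraries, against 105, 92.8 and 110 in Th9 libraries (0.53, interval 0.26 to 0.8, limma-trend adjusted p = 0.00736). Tjp1 had 9541, 9448 and 9181 in Th17 libraries, against 6043, 7007 and 6880 in Th9 libraries (0.50, interval 0.29 to 0.71, limma-trend adjusted p = 0.00192). In all 3 the groups did not overlap. Fn1 had 23842, 24739 and 24297 in Th17 libraries, against 18892, 18464 and 20203 in Th9 libraries (0.34, interval 0.14 to 0.54, limma-trend adjusted p = 0.0162). Axl had 4268, 4430 and 4496 in Th17 libraries, against 6194, 6137 and 6407 in Th9 libraries (-0.51, interval -0.65 to -0.37, limma-trend adjusted p = 5.2e-05). The difference between the co-cultures was thus itself tested for Krt8, Ncam1, Tjp1, Fn1 and Axl. The Fn1 call was lost without Th9 replicate 1 or 2 or any Th17 replicate (adjusted p up to 0.0816), and that of Ncam1 without Th17 replicate 2 (0.0544). Krt18 (0.26, adjusted p = 0.105), Vim (0.17, 0.492), Cdh2 (0.07, 0.728), Ocln (-0.25, 0.223) and Pkp3 (-0.20, 0.418) did not pass by limma-trend. Without Th0 replicate 1, Krt18 (0.26, limma-trend adjusted p = 5.1e-04) and Vim (0.17, 0.0205) were called higher and Ocln (-0.25, 0.0461) lower. The same genes were called with only the Th9 and Th17 libraries in the fit. Cdh2 and Pkp3 were called in no alternative fit.

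Several genes of the wider lists differed between Th17 and Th9 as well, where 9.67% of all genes tested were called higher and 11.2% lower. Of 13 tight junction genes tested 3 were higher with Th17 cells (Cgnl1, Tjp1 and Mpdz) and 2 lower (Mpp5 and Cldn12), and of 6 desmosome genes 2 were higher (Ppl and Jup) and 1 lower (Pkp4). Of 6 keratins Krt8 and Krt7 were called higher, Krt7 with 10.8, 14 and 20.6 in Th17 libraries, against 1.91, 5.10 and 3.04 in Th9 libraries, which alone would not have passed the filter. Of 17 mesenchymal filament and membrane genes 6 were higher, among them S100a4 (log2 fold change 1.09, adjusted p = 5.2e-05 by limma-trend) and Acta2 (0.89, 0.00149), and 2 lower (Axl, and Thy1, which passed the filter only through Th9). Of 6 EMT transcription factors 3 were lower with Th17 cells, Zeb2 (-0.48, 1.6e-04), Snai2 (-0.48, 0.00551) and Zeb1 (-0.20, 0.0461). Of 5 epithelial surface and regulator genes 2 were lower, Klf5 (-0.89, 7.9e-05) and Elf3 (-1.78, 4.6e-04). As before, genes of both classes lay on both sides. Of 10 cadherin and catenin genes 4 were higher (Ctnna1, Ctnnd1, Nectin3 and Jup) and 1 lower (Nectin2), Mertk was higher (0.95, 1.3e-06), and 12 of 14 T cell markers tested were called lower, 10 of them with a mean under 10 in Th17 libraries. The calls of Mpdz, Mpp5, Cldn12, Jup, Zeb1, Ctnnd1, Nectin2 and Nectin3 were lost when any of several single libraries was left out, and that of Ctnna1 without Th9 replicate 1. Those of Zeb1 and Cldn12 were also lost with median-of-ratios size factors or no filter on low values. The Zeb1 call was lost with a replicate block too, and that of Nectin2 with no filter.

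**Figure D4:**
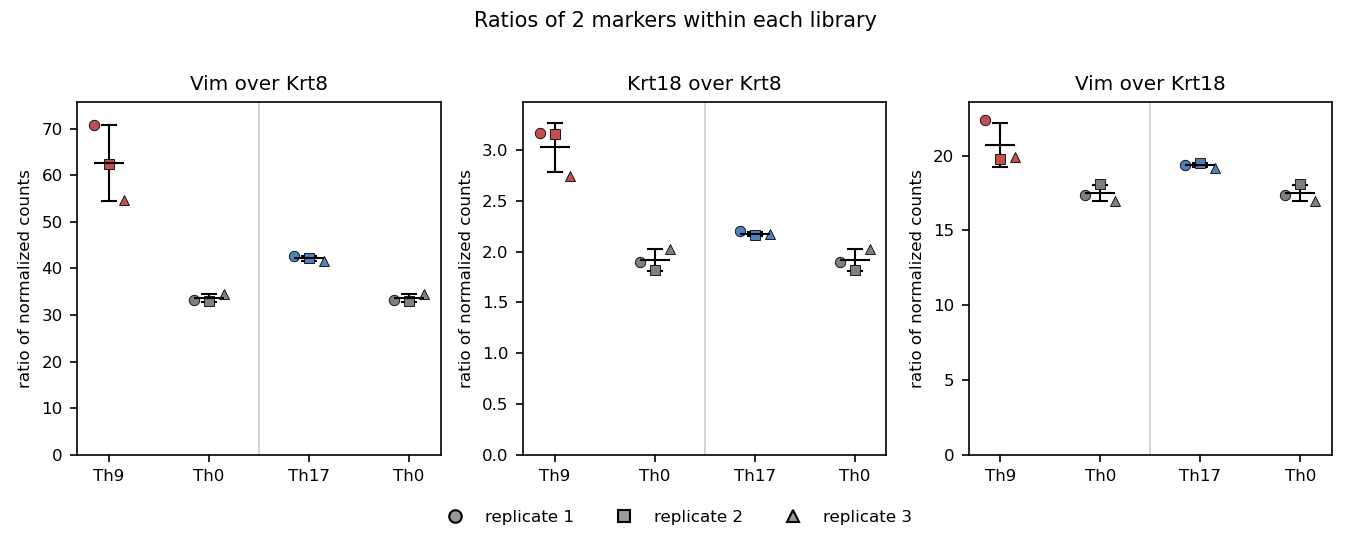
Ratios of normalized counts within each library (linear axes from 0): Vim over Krt8, Krt18 over Krt8 and Vim over Krt18, for Th9 and Th0 of the table with Th9 and for Th17 and Th0 of the table with Th17; bars are mean ± SD (n = 3). Vim over Krt8 averages 62.7 with Th9, 42.2 with Th17 and 33.6 with Th0, while Vim over Krt18 averages 20.7, 19.4 and 17.5.

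The genes whose pattern over the 9 libraries was closest to that of Krt8, by the root mean square difference of centred log2 values among 9773 genes, were Lmnb1 (0.0736), which encodes the nuclear filament protein lamin B1, Amotl2 (0.0852), which encodes a junction-associated angiomotin, and F2rl1 (0.0879), which encodes the protease-activated receptor PAR2. In Th9 against Th0 their log2 fold changes were -0.86, -0.91 and -0.97, beside -0.97 for Krt8. Those closest to Vim were Nek7 (0.0338), Tpr (0.0363) and Rbbp7 (0.0385), with log2 fold changes of -0.13, -0.07 and -0.07 in Th9. All were picked by likeness over these same libraries, so their nearness to Krt8 or Vim in fold change follows from the choice. The strand setting of the counting is not stated, and of genes that overlap a marker only Apol7d, antisense to Fn1, and Gm44794, in Tjp1, were listed in the table with Th9, at no more than 22 and 5 normalized counts.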

How the data were processed

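LLC1 cells co-cultured with Th9, Th17 or Th0 cells were measured in 9 libraries. Per the labels' protocols, RNA was isolated with the miRNeasy micro kit and on-column DNase digestion, and 1 µg of total RNA went into a stranded SMARTer kit. Per the submitters' processing notes the tools were STAR 2.4.0a, featureCounts 1.4.5-p1 (Subread) and DESeq2 1.62 and the build mm10 (GRCm38), with no role or order given. The authors deposited 2 tables of scores, normalized counts (reads over a size factor of the library) rounded to whole numbers (18816 genes with Th9, 18511 with Th17). The steps of the values gave each size factor, and approximate reads are value times factor; 63.6% to 100% of a library's values allow 1 read number, and Th0 reads were equal within 1 between the tables for 99.96% to 100% of 18022 shared genes. Unused columns of samples number 0.

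Th9 against Th0 and Th17 against Th0 were fitted within 1 table each by limma-trend (limma 3.58.1, R 4.3.3) on log2(value + 1), keeping genes whose mean reached 10, with Benjamini-Hochberg adjustment over all genes tested. Fold changes are on this log2(value + 1) scale and understate those of low genes. Th17 against Th9 used approximate reads on 1 TMM scale (trimmed by 30% and 5%) and a fit of all 9 libraries. The fits against Th0 were tested on simulated data, and the fit of Th17 against Th9 was not. Of 19305 gene IDs, 19247 had a GENCODE M21 length. The main fits did not pair libraries by replicate number, and whether the numbers pair them could not be told. The 3 libraries per group limit the precision of every value.

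Members and lists were chosen with earlier results of these data known. The text names the 10 markers, Cdh1 and Epcam, up to 3 called genes per list, direction and comparison with the smallest adjusted p and a mean of at least 50, and the 3 genes most like Krt8 and Vim. Other genes it names (Krt7, Krt10, Krt19, Krt80, Inadl, Elf3, Nes, Tagln, Pdgfrb, Des, Tns1, St8sia4, Jup, Snai1, Pecam1, Lyz2, Cd14 and unlisted genes) were chosen after their values were seen. Alternatives covered the pseudocount (5), the filter (0 and 50), scaling, library weights, a replicate block, and each library left out.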

Additional observations from a re-analysis of the deposited data

Results flagged for a closer look

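For 5 of the 10 markers the level differed between Th17 and Th9 libraries, by the direct test of that difference over all 9 libraries on 1 scale. That test called 20.9% of all genes tested (31.6% without Th0 replicate 1). The 5 markers were Krt8 (log2 fold change of Th17 over Th9 0.74, limma-trend adjusted p = 4.0e-04), Ncam1 (0.53, 0.00736), Tjp1 (0.50, 0.00192), Fn1 (0.34, 0.0162) and Axl (-0.51, 5.2e-05). In each, the values of all 3 Th17 libraries lay on one side of those of all 3 Th9 libraries, as they did for 44.9% of all genes tested. The Fn1 call was lost without Th9 replicate 1 or 2 or any Th17 replicate (adjusted p up to 0.0816 by limma-trend), and the Ncam1 call without Th17 replicate 2 (0.0544). Beside this stands the summed level of T cell markers, 93 to 112 in Th17 libraries and 1468 to 2077 in Th9 libraries, over 15 and 24 genes listed in tables that were normalized separately; its part in these differences was not tested.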

How the results depend on the processing

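Of the values for single genes under an alternative, 1079 kept direction and call, 128 lost a call, 24 gained one, 13 turned direction and 5 ratios moved. Krt8, Ncam1 and Axl passed in all 14 alternatives of Th9 against Th0, and Krt8, Tjp1 and Axl in all 13 of Th17 against Th9. Values that turned direction were not called where they did so. Leaving out single libraries, the ranges were -0.25 to 0.02 for Vim, -0.31 to 0.01 for Cdh2 and -0.14 to 0.2 for Ocln in Th9 (Ocln also -0.01 without Th9 replicate 3), and -0.07 to 0.2 for Vim, -0.22 to 0.09 for Cdh2 (0.00 without Th17 replicate 2), -0.21 to 0.05 for Krt18 (0.03 without Th0 replicate 2) and -0.03 to 0.17 for Tjp1 in Th17, the lowest of each range without Th0 replicate 1. Vim was at 0.03 in Th9 with the same total per library and at -0.03 in Th17 with array weights, and Ocln at -0.06 in Th9 with array weights. Array weights called 6628 genes in Th9 (3302 higher, 3326 lower; 8 markers), 3361 in Th17 (1572 and 1789; 4 markers) and 4995 in Th17 against Th9 (2463 and 2532). The same total per library left 794 lower calls in Th9, and 139 calls in Th17 with 20 lower; leaving mt-Rnr1, mt-Rnr2 and Gm26917 out of that total gave 447 (345 higher, 102 lower) in Th17. With only the Th9 and Th17 libraries, 4788 genes were called between them (2331 and 2457; 8 markers). The ratio of summed levels in Th0 was 5.40 with the longest transcript. The cause of these differences was not tested.

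Leaving out each library in turn gave 1853 to 5336 calls in Th9 (1015 to 2594 higher, 838 to 2742 lower, 3 to 9 markers), 16 to 2352 in Th17 (14 to 974, 2 to 1378, 0 to 4 markers) and 2015 to 4544 in Th17 against Th9 (869 to 2200, 1137 to 2344, 3 to 8 markers), the highest count each time without Th0 replicate 1, a choice made after seeing the data for Th17 against Th9. Same-numbered libraries correlated at 0.111, -0.011 and 0.145 (Th9 with Th0), -0.0547, -0.0795 and 0.039 (Th17 with Th0) and -0.0274, -0.137 and 0.03 (Th17 with Th9). Libraries of different number ran from -0.135 to 0.0399, from -0.0466 to 0.0942 and from -0.107 to 0.138 in the same order. With 3 libraries per group these values cannot tell whether the numbers pair the libraries. With a replicate block 6 markers were called in Th9, Krt18 among them, 0 in Th17 and 5 in Th17 against Th9, with 2114 higher and 1962 lower, 186 and 76, and 1348 and 1583 genes.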
